A study of Danio rerio with 26 samples.

Results

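Dense chains of accessible sites were examined in the early zebrafish embryo. A chain is a row of neighbouring ATAC-seq peaks in which no gap, counted from the end of one peak to the start of the next, is longer than 2000 bp. The chains were chosen by these gaps alone, and every chain of 4 or more peaks on chromosomes 1 to 25 was kept. This gave 166 chains with 774 peaks, out of 25521 peaks on the assembled chromosomes and 25975 in the whole consensus set. The 454 peaks on unplaced scaffolds held 0 chains of this kind. The remaining 24747 peaks on the chromosomes stood in shorter chains, with 1308 in chains of 3, 4392 in chains of 2 and 19047 alone.

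The peaks come from whole wild-type embryos of the TLAB strain, for which the labels name no treatment. Their 17 libraries cover 7 stages, with 2 libraries for the 256-cell stage, 3 for the high and 3 for the oblong stage, 2 for sphere, 3 for dome, 2 for shield and 2 for 80% epiboly. Cells of whole embryos were freed of yolk, and open DNA was marked by insertion of adapters with Tn5 transposase. Peaks had been called stage by stage on short, nucleosome-free fragments, and the stages were then merged into 1 list of positions on Zv10. The list carries no signal, stage or library, so a chain can join peaks that were open at different stages, and no peak has a depth or a replicate error. A position is given below counted from 1.

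An accessible site is a stretch of DNA from which nucleosomes have been displaced, usually by transcription factors bound to a promoter or an enhancer. In the zebrafish embryo, maternal factors such as Pou5f3, Sox19b and Nanog open many such sites around the time the zygotic genome becomes active. Closely spaced sites are known from gene-dense stretches of genomes and from clusters of enhancers near developmental genes. No chain was assigned to a gene here, because a gene annotation of Zv10 was not used.

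Most chains were short, and a few were very long. Of the 166 chains, 113 held 4 peaks, 30 held 5, 12 held 6 and 5 held 7. The 6 largest held 8, 9, 10, 11, 12 and 15 peaks. Chains of 6 or more numbered 23 and contained 172 of the 774 peaks (22.2%). The chain of 15 was on chromosome 25, the chain of 12 on chromosome 4, the chain of 11 on chromosome 7, the chain of 10 on chromosome 2, the chain of 9 on chromosome 25 and the chain of 8 on chromosome 3.

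Longer chains went on more often than shorter ones. Of the 2798 chains with at least 2 peaks, 21.5% had 3 or more, and of the 602 with at least 3 peaks, 27.6% had 4 or more. Of the 166 with at least 4 peaks, 31.9% had 5 or more (95% Wilson interval 25.3 to 39.4%, counting error only). Of the 53 with at least 5 peaks, 43.4% had 6 or more (31.0 to 56.7%), and these last 2 intervals overlap. For peaks placed independently, so that gaps are exponential with the mean gap of each chromosome, a formula gave 3.87%, 3.91%, 3.94% and 3.97% for the same steps. With the peak density of each 1 Mb bin in place of the chromosome mean, the formula gave 5.48%, 6.40%, 7.42% and 8.49%.

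**Figure D1:**
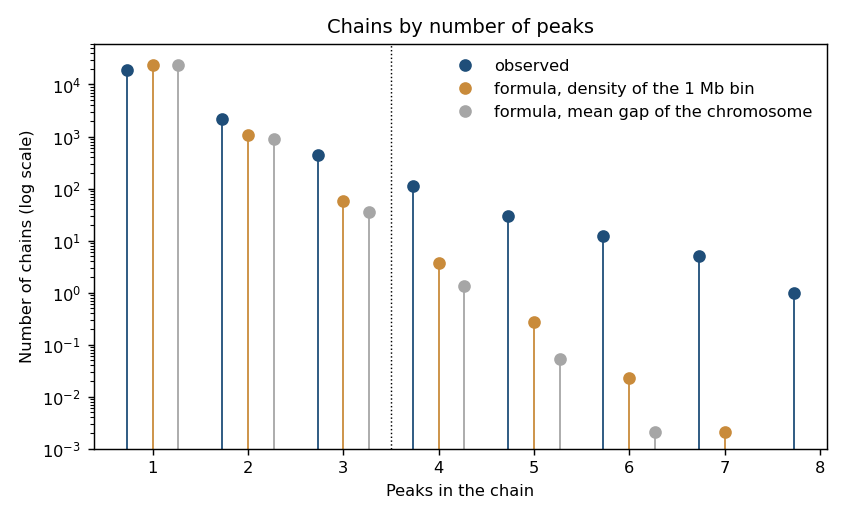
Number of chains (log scale) against the number of peaks in a chain, with the observed number beside the number from the formula with the density of each 1 Mb bin and with the mean gap of each chromosome. The dotted line marks the bound of 4 peaks, above which 166 chains were observed, and the 5 chains of over 8 peaks are not drawn.

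The same formula gave the number of dense chains under independent placement. Against the 166 chains with 774 peaks observed, it gave 1.42 chains with 5.74 peaks for the mean gap of each chromosome, so that the number of peaks observed in dense chains was 135 times the number from the formula. With the density of each 1 Mb bin it gave 3.94 chains with 16.1 peaks, and the ratio was 48.1. The observed number of peaks was above the formula with 1 Mb bins on 25 of 25 chromosomes. The formula gave at most 1.45 peaks for a chromosome, so any chromosome with 1 chain of 4 peaks lies above it. Since the chains were picked by their gaps, these numbers describe the choice, and no p-value was computed.

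The chains were a few kilobases long. Their median span was 4.72 kb, with quartiles of 3.81 and 5.82 kb, a shortest span of 1.78 kb and a longest of 24.2 kb. Chains of 4 had a median span of 4.23 kb, and chains of 6 or more had one of 7.91 kb. Peaks covered a median of 36.4% of the span, and 33 chains were covered by more than 50%. The chain with the most coverage, 85.9%, was on chromosome 7 from 6321908 to 6325373. Its 4 peaks were 738, 552, 725 and 962 bp wide, and the gaps between them were only 165, 190 and 134 bp. At the other extreme, 5 peaks on chromosome 8 from 31093507 to 31100193 covered 19.7% of their chain, with widths of 200 to 320 bp and gaps of 205 to 1909 bp. The shortest chain lay on chromosome 23 from 19054781 to 19056559, with 4 peaks of 200, 376, 306 and 200 bp and gaps of 169, 363 and 165 bp.

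Inside the chains, gaps between 250 and 750 bp were the most common. The 608 gaps had a median of 748 bp, with quartiles of 408 and 1272 bp, and 195 of them (32.1%) were 500 bp or shorter. In chains of 3 the median gap was 803 bp and 30.2% were up to 500 bp, and in chains of 2 these values were 725 bp and 36.6%. By classes of 250 bp, the fullest classes of the dense chains were 251 to 500 bp (115 gaps) and 501 to 750 bp (110 gaps), and the fewest gaps fell between 1501 and 1750 bp (49 gaps). The class of 251 to 500 bp was also the fullest in chains of 3 (155 of 872 gaps) and in chains of 2 (417 of 2196 gaps). The narrowest gap, 5 bp, was in a chain of 6 on chromosome 3 from 25138069 to 25141502, between peaks of 271 and 214 bp.

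Just inside the bound of 2000 bp, the largest gaps within the chains were 1998 and 1996 bp, and 27 gaps measured 1900 bp or more. Just outside it, the smallest gaps from a chain to the next peak were 2005 and 2013 bp, and 8 were up to 2100 bp. With a bound of 1900 bp there were 148 chains with 682 peaks, and with 2100 bp there were 183 chains with 860 peaks. The 113 chains of 4 peaks, which just met the bound on size, had a median width of 352 bp and a median coverage of 35.6%, against 340 bp and 37.5% in the 436 chains of 3. A larger chain has more gaps per peak, so at equal widths and gaps its coverage is lower by construction.

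**Figure D2:**
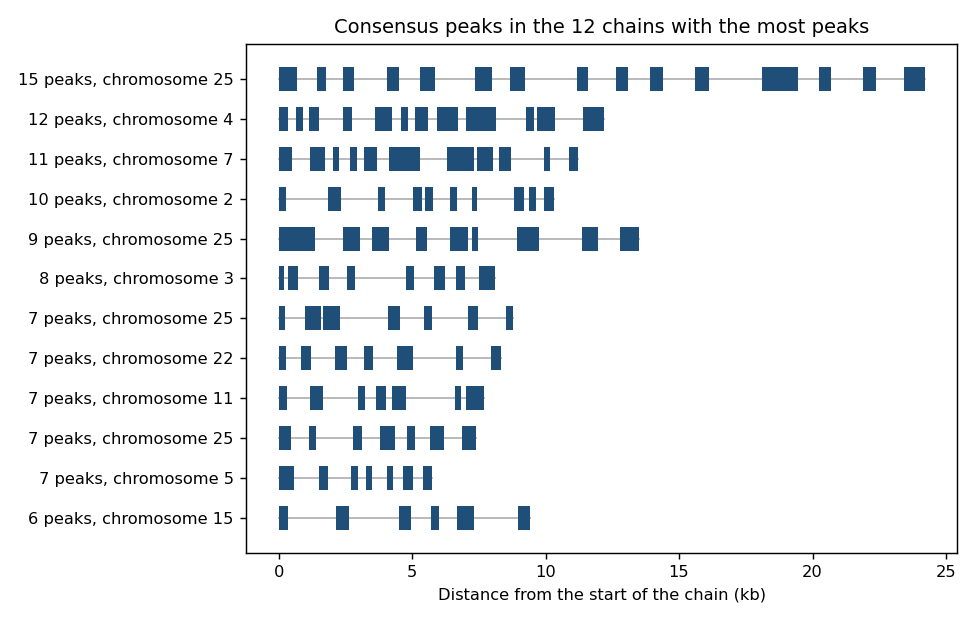
Position and width of each consensus peak (bars, to scale) against the distance in kb from the start of the chain, for the 12 chains with the most peaks. The chain of 15 peaks on chromosome 25 spans 24.2 kb, and the chains of 12, 11 and 10 peaks are each between 10.3 and 12.2 kb long.

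The chain of 15 peaks lay on chromosome 25 from 34626846 to 34651059. It was the longest of all and had no short gap, since its gaps ran from 615 to 1979 bp with a median of 1040 bp. In order, its peaks were 694, 369, 422, 448, 563, 628, 556, 419, 446, 501, 539, 1353, 446, 457 and 807 bp wide. All but the first, the twelfth and the last were between 369 and 628 bp, and the twelfth was the widest. From midpoint to midpoint, successive peaks were 1258.5, 1010.5, 1683, 1288.5, 2093.5, 1281, 2427.5, 1461.5, 1310.5, 1686, 2925, 1680.5, 1675.5 and 1682 bp apart. Of these 14 spacings, 5 lay within 1675.5 to 1686 bp, including the last 3 in a row. In all other chains, 3 of 594 spacings (0.505%) fell in that range. The range was picked after the spacings had been seen. Of the 22 other chains of 6 or more peaks, 5 had at most 2 spacings within any 12 bp of each other, and 17 had none that were so alike. These chains had 5 to 11 spacings each, fewer than the 14 here, which leaves fewer chances for alike values.

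The chain of 12 peaks, on chromosome 4 from 28752402 to 28764576, was more tightly packed. It was 12.2 kb long, and peaks covered 51.7% of it. In order, the peaks measured 335, 268, 350, 314, 633, 260, 484, 786, 1115, 316, 667 and 771 bp. The gaps between them were 313, 238, 918, 887, 311, 270, 333, 310, 1129, 124 and 1043 bp, so that 7 of 11 were at most 500 bp. Its gaps of 310, 311 and 313 bp differed by 3 bp at most, and no gap of 310 to 313 bp occurred among the 597 gaps of the other chains. This range was also picked after the values were known. All dense chains together had 115 gaps from 251 to 500 bp, so a range this narrow would hold few gaps in any case. A chain of 4 peaks lay 9.48 kb before it, from 28738741 to 28742919.

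The chain of 11 peaks, on chromosome 7 from 73627912 to 73639115, had a similar build. It spanned 11.2 kb with 51.3% covered, and 6 of its 10 gaps were up to 500 bp. The widths were 492, 576, 209, 245, 505, 1169, 996, 593, 445, 200 and 320 bp, with the wide peaks in the middle. The chain of 10 peaks, on chromosome 2 from 33997515 to 34007813, was different. None of its peaks reached 500 bp, with widths of 267, 485, 260, 331, 322, 235, 211, 391, 244 and 342 bp, and peaks covered 30.0% of its 10.3 kb. Its gaps ranged from 109 to 1594 bp. The nearest other dense chain was 1933 kb away.

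The next chains by number of peaks also differed in build. The chain of 9, on chromosome 25 from 34540040 to 34553540, had the widest peaks among them, with a median of 634 bp, and 7 of its 9 peaks were at least 600 bp wide. The chain of 8, on chromosome 3 from 23438542 to 23446638, had a median of 365 bp. The 5 chains of 7 lay on chromosome 25 from 35782879 to 35791652 and from 34601679 to 34609083, on chromosome 22 from 11109631 to 11117974, on chromosome 11 from 3837418 to 3845117, and on chromosome 5 from 68033136 to 68038870. Their median widths were 385, 472, 383, 375 and 321 bp in that order.

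The 9 longest of the chains of 6 completed the 20 chains with the most peaks. They lay on chromosome 15 from 14097496, on chromosome 13 from 3018877 and from 14838655, on chromosome 4 from 11581983, on chromosome 7 from 6289299 and from 5782133, on chromosome 25 from 35759330, and on chromosome 5 from 52540091 and from 12785618. Their spans ran from 6.28 kb for the last of these to 9.41 kb for the first. Together the 20 chains held 154 peaks on 10 chromosomes.

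The chains differed in how far they rested on short gaps. When peaks with a gap of up to 500 bp were joined, 77 of the 166 chains still had 4 or more peaks, 47 were unchanged and 8 became a single peak. The chain of 15 kept all 15 peaks, and the chains of 12 and 11 were reduced to 5 each. The chain of 10 and the chain of 9 kept 7 each. When only gaps of up to 100 bp were closed, 160 chains still had 4 or more peaks and 157 were unchanged. Whether such close peaks are separate sites was not tested.

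Evenness of spacing varied among the 23 chains of 6 or more peaks. The coefficient of variation of the distance between midpoints had a median of 0.431 and ran from 0.226 to 0.583. The most even chain was on chromosome 13 from 3018877 to 3027092, with 6 peaks of 298 to 416 bp and spacings of 1197.5 to 2002.5 bp. The least even was on chromosome 5 from 12785618 to 12791894, with spacings of 381 to 2180.5 bp.

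Peaks in dense chains were wider than the other peaks. Width did not enter the rule directly, though a wide peak leaves a smaller gap at the same distance between midpoints. All widths are those of peaks merged over stages, so they are not the widths of a site at 1 stage. The median width was 362 bp in dense chains (quartiles 290 and 466 bp, n = 774 peaks), against 315 bp in chains of 1 to 3 (263 and 388 bp, n = 24747), a difference of 47 bp. The median was ordered by chain size, with 384 bp in chains of 6 or more, 362.5 bp in chains of 5, 352 bp in chains of 4, 340 bp in chains of 3, 327 bp in chains of 2 and 311 bp for single peaks. The list has no replicates and peaks of 1 chain are not independent, so the difference was not tested. By chromosome, the median was higher for dense chains than for chains of 1 to 3 on 23 of 25. The exceptions were chromosome 12, with 306 against 316 bp, and chromosome 17, with 313.5 against 315 bp. The size of the difference varied among the others. It was small on chromosome 1 (314 against 313 bp) and chromosome 5 (322.5 against 316 bp). It was large on chromosome 25 (446 against 314 bp) and chromosome 7 (427 against 315 bp). Chromosome 11 (443 against 318 bp) and chromosome 6 (425 against 310 bp) also had large differences, with 17 and 14 peaks in dense chains. When chains were built on the distance between midpoints instead, the difference over all chromosomes was 51.5 bp.

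Both tails of the widths moved with chain size. Peaks of 600 bp or more made up 11.8% of the peaks in dense chains (91 peaks), against 4.03% in chains of 1 to 3 (998 peaks). By chain size the shorter chains had 7.42% in chains of 3, 5.49% in chains of 2 and 3.47% among single peaks. Peaks of exactly 200 bp, the narrowest width in the list, made up 1.55% in dense chains (12 peaks), against 3.35% in chains of 1 to 3 (829 peaks). They made up 2.52% in chains of 3, 2.64% in chains of 2 and 3.57% among single peaks. The shares of dense chains and of chains of 3 rest on only 12 and 33 peaks. Peaks of 1 chain are not independent, so no interval is given, and the difference was not tested. Of the 82 peaks over 1 kb on the chromosomes, 16 (19.5%) were in dense chains, each in a different chain. A peak of 600 bp or more was present in 53 of the 166 chains. The widest peak of any dense chain, 2476 bp, was the last of 4 on chromosome 19 from 43523133 to 43528158, after peaks of 490, 345 and 725 bp.

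Wide peaks had no fixed place in a chain. The first and last peaks of the chains had a median width of 345.5 bp (n = 332) and the peaks between them one of 368 bp (n = 442), and 12.7% and 11.1% of them were at least 600 bp wide. The widest peak was an inner one in 89 of 166 chains (53.6%). That is close to 54.8%, the mean over the chains of the share of a chain's places that are inner. Within a chain, the widest peak was a median of 1.99 times as wide as the narrowest, with a range of 1.08 to 7.73. Widths of adjacent peaks were weakly related across the 608 neighbours in dense chains (Spearman's rho = 0.16) and hardly across the 3068 neighbours in chains of 2 or 3 (rho = 0.03). These neighbours share peaks, so the coefficients are given without a test. The pairs were pooled over chains, so differences in width from chain to chain also enter the coefficients.

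Some dense chains lay next to each other. Of the 166 chains, 27 had another dense chain within 100 kb, and these formed 10 groups on 6 chromosomes. The distance to the nearest dense chain was otherwise long, with a median of 2.63 Mb and a maximum of 29.1 Mb over the 166 chains. The closest chains were 2.08 kb apart, just over the bound, on chromosome 25.

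**Figure D3:**
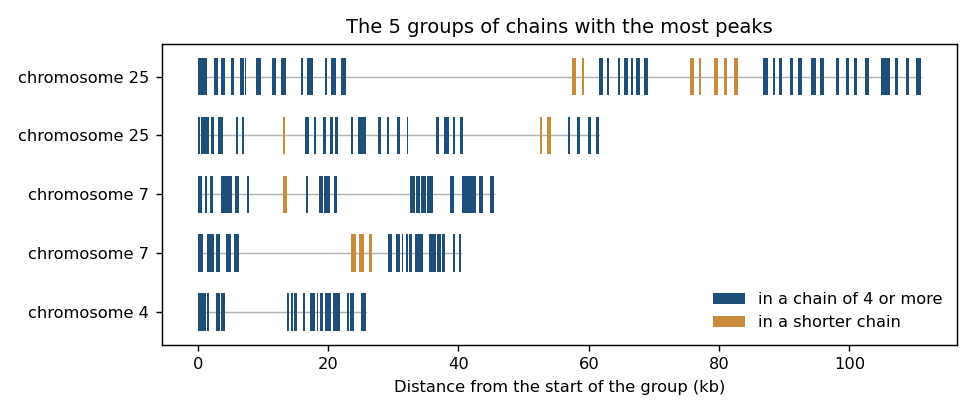
Position and width of all consensus peaks (bars, to scale) in the 5 groups of neighbouring dense chains with the most peaks, against the distance in kb from the start of the group. Peaks in chains of 4 or more and in shorter chains are set apart by colour, and the groups on chromosome 25 hold 36 of 43 and 26 of 29 peaks in dense chains.

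The groups with the most peaks were on chromosome 25. From 34540040 to 34651059, 4 chains of 9, 5, 7 and 15 peaks stood within 111 kb, and 36 of the 43 peaks there belonged to them. From 35759330 to 35820927, 5 chains of 6, 5, 7, 4 and 4 peaks stood within 61.6 kb, with 26 of 29 peaks. On chromosome 7 from 6289299 to 6334783, 4 chains of 6, 4, 4 and 4 peaks held 18 of 19 peaks within 45.5 kb. The chain with 85.9% of its span covered was one of these. The chain of 11 on chromosome 7 and the chain of 12 on chromosome 4 each had a single partner, of 5 and of 4 peaks. In these pairs, 16 of 19 and 16 of 16 peaks belonged to dense chains. The 5 other groups were pairs of chains with 8 or 9 peaks in all, on chromosomes 3, 7, 10, 20 and 25.

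Of the 91 wide peaks of dense chains, 50 were in these groups and 41 in chains that stood alone. The 154 peaks of chains in groups had a median width of 447 bp (quartiles 317 and 650 bp), against 347 bp (284 and 429 bp) for the 620 peaks of the 139 chains that stood alone. Of the peaks in groups 32.5% were at least 600 bp wide, against 6.61% of the peaks in chains that stood alone. The share in chains that stood alone was below the 7.42% of chains of 3. That 7.42% covers all chains of 3, including some that lie inside the groups, so the shares are not a like comparison. Of the 16 dense-chain peaks over 1 kb, 10 were in groups. Without the groups, the median width of peaks in dense chains was 32 bp above that of chains of 1 to 3, in place of 47 bp. Here too, the chains of 1 to 3 near the groups were kept. Among the groups, the 5 with the most peaks had median widths of 433.5 to 632 bp and 43 wide peaks out of 112, and the 5 others had medians of 304 to 405 bp and 7 wide peaks out of 42. Chains in groups were also covered more densely, with a median of 48.1% of their span against 34.9% for chains that stood alone. Not all large chains had a neighbour, since 8 of the 23 chains of 6 or more peaks were in groups and 15 stood alone. The comparison by groups was made after the chains had been seen.

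**Figure D4:**
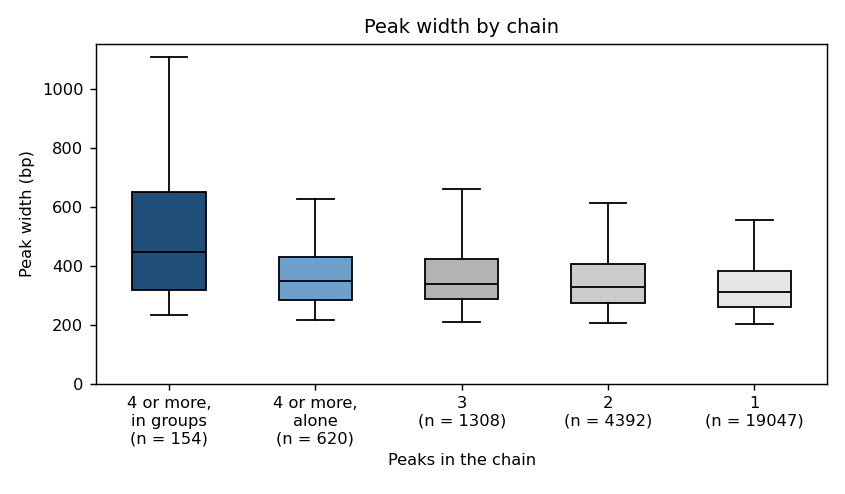
Peak width in bp for peaks of dense chains with another dense chain within 100 kb (in groups), of dense chains without one (alone), and of chains of 3, 2 and 1 peaks. Boxes show the median and quartiles and whiskers the 5th and 95th percentiles, and the medians are 447, 347, 340, 327 and 311 bp from left to right.

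Peaks just outside the dense chains were intermediate. The 1151 peaks of shorter chains within 100 kb of a dense chain had a median width of 327 bp (quartiles 274 and 410 bp), and 7.12% of them were at least 600 bp wide. Over all dense chains these values were 362 bp and 11.8%, and in dense chains that stood alone they were 347 bp and 6.61%. The 1151 peaks surround all 166 chains, those in groups included, so only the values of all dense chains are a like comparison. The dense chains were also set in a crowded neighbourhood. The next peak outside a chain was a median of 4.46 kb away on the nearer side for dense chains, against 6.98 kb for chains of 3, 10.4 kb for chains of 2 and 14.3 kb for single peaks. For 88 of the 166 dense chains (53.0%) it was within 5 kb, as it was for 40.6% of chains of 3, 30.2% of chains of 2 and 22.1% of single peaks.

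Every chromosome held at least 2 dense chains, but their share of peaks differed widely. Over all chromosomes 3.03% of peaks were in dense chains. Chromosome 25 had the highest share, 10.4%, with 75 peaks in 12 chains. Chromosome 7 followed with 5.85% (95 peaks in 20 chains, the most chains on any chromosome), chromosome 13 with 5.31% (56 peaks in 12 chains) and chromosome 22 with 4.23% (30 peaks in 6 chains). Chromosome 16 had the lowest share, 0.85%, with 9 peaks in 2 chains, and chromosomes 6, 9, 11, 12, 14, 17 and 19 were also under 2%. The chromosomes with the most chains, 3, 7, 13 and 25, together held 36.4% of the peaks in dense chains and 18.8% of all peaks. They are named for their high counts, so a share above that of all peaks was built into the choice.

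On chromosome 25 the high share rested on its pair of large groups. Outside them, 13 of 648 peaks (2.01%) were in dense chains, a lower share than the 2.61% outside the 5 largest groups over all chromosomes. On chromosome 7, 61 of 1586 peaks (3.85%) were in dense chains outside its 2 large groups, and on chromosome 4, 14 of 809 (1.73%) outside its 1 large group. The 12 chains of chromosome 13 had no other dense chain within 100 kb. The share of peaks in dense chains was hardly related to the density of peaks per Mb over the 25 chromosomes (Pearson's r = 0.11, Spearman's rho = 0.14), and both values come from the same peaks.

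**Figure D5:**
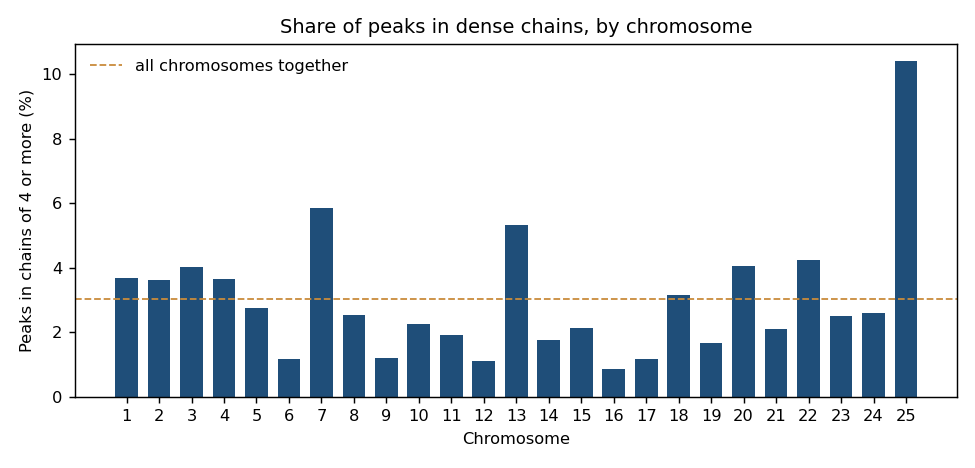
Share of the consensus peaks of each chromosome that are in chains of 4 or more peaks, in percent, with a dashed line at the 3.03% of all chromosomes together. Chromosome 25 stands highest at 10.4% and chromosome 16 lowest at 0.85%, and no error bars are drawn because peaks come in whole chains.

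Dense chains were also found near chromosome ends. Of the 774 peaks, 83 (10.7%) lay within 1 Mb of the first or last peak of a chromosome, against 7.39% of the peaks in chains of 1 to 3, and 3.73% of the length. Chains of 3 had 12.2% of their peaks there, chains of 2 had 9.65% and single peaks 6.55%, so the share did not increase further from chains of 3 to dense chains. Nearly all of these peaks were within 500 kb of the end, 79 of 83, whereas 4 lay between 500 kb and 1 Mb. Within 500 kb the share was 10.2% in dense chains, against 4.46% in chains of 1 to 3, a class made up mostly of single peaks. The share of chains of 3 alone is not given at this distance, so dense chains cannot be set against them there. These peaks formed 18 chains at 14 of 50 ends, and 17 of them started or ended within 500 kb of the outermost peak, at a median of 157 kb over the 18. The chains of 4 from 14620 to 18835 and from 58865735 to 58870872 contained the first and the last peak of chromosome 1. The chain of 11 peaks on chromosome 7 was 1 of the 18, and the 17 others had 4 or 5 peaks.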

How the data were processed

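ATAC-seq was done on zebrafish embryos, and the consensus peak list was made from 17 wild-type libraries. Of the 9 other libraries of the series, the naked genomic DNA control entered only as the background for peak calling, and the mutant and alpha-amanitin libraries were not used here. The authors trimmed reads, aligned them with Bowtie2 to Zv10, kept those of mapping quality 30 or more without duplicates or mitochondrial reads, shifted them for Tn5 and took fragments of up to 130 bp. MACS2 peaks at a 5% FDR over naked genomic DNA were called on pooled replicates of a stage, kept if found in every replicate, and merged where stages overlapped by at least 1 bp. The submitters' processing notes name cutadapt 1.9.1, Bowtie2 2.2.4, MACS2 2.1.1 and deepTools 3.1.3.

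The deposited list holds positions alone (chromosome, start and end, a unit of another kind than a count or signal), so the depth behind a peak is unknown and a weak site can be missing from a chain. Starts were read as counted from 0, because the narrowest peak is then exactly 200 bp. Were they counted from 1, the printed starts would be 1 bp too far along and the widths 1 bp short. How close peaks can be to each other depends on the peak caller and on the merging of stages.

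Figures were drawn with matplotlib 3.10.9, and chains, gaps and widths were computed with pandas 2.3.3, scipy 1.17.1 and numpy 2.4.6 under Python 3.11.15. A peak was called wide at 600 bp or more. The numbers of chains and of their peaks under independent placement come from a closed formula. The number of peaks for the mean gap of each chromosome was checked on simulated data. The simulation used the same independent exponential gaps as the formula, so it checked the calculation and not whether the model describes these peaks. The 20 chains with the most peaks were named (ties by length), with every peak given for the first 4, and besides them the chains at the extremes of length, coverage, evenness, width and gap, the chains of the groups, and the first and last chain of chromosome 1. Settings varied were the largest gap, the smallest chain, the way a gap is measured, the joining of close peaks, the width filter, the chromosomes included, the formula and the distance from chromosome ends. Members and lists were chosen with earlier results of these data known. Nothing was tested, as the list has no replicates.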

Additional observations from a re-analysis of the deposited data

How the results depend on the processing

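Of 54 alternative values, 29 stayed within 1.5 times the main count, ratio or width difference, or within the interval of the main share. The other 25 did not, and 0 changed direction. A number of chains or of peaks has no direction to change, so the last count bears only on the other values. Of the main values, 166 chains with 774 peaks, a ratio of 135 to the formula, a difference in median width of 47 bp and 10.7% of peaks within 1 Mb of an end, the numbers of chains and peaks and the ratio changed with the bounds. A largest gap of 1000 bp gave 52 chains, 228 peaks, a ratio of 304 and a width difference of 31 bp. A gap of 3000 bp gave 305 chains, 1473 peaks and a ratio of 79.6. A gap of 5000 bp gave 525 chains, 2647 peaks, a ratio of 33.8 and 30 bp. Chains of at least 3 peaks gave 602 chains, 2082 peaks and a ratio of 18.9, and chains of at least 5 gave 53 chains, 322 peaks and a ratio of 1142. Gaps from midpoint to midpoint gave 502 peaks and a ratio of 89.3. Joining peaks across up to 500 bp gave 77 chains, 353 peaks and a ratio of 75.2. The density of 1 Mb bins gave a ratio of 48.1, and including unplaced scaffolds one of 11.3, since the formula takes a short scaffold with a few peaks as dense. Within 2 Mb of an end lay 17.3% of the peaks in dense chains, against 12.1% of those in chains of 1 to 3. The ratio of these shares was 1.43, close to the 1.45 within 1 Mb, but within 500 kb it was higher, at 2.29.

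The width difference was positive in every setting run, from 30 to 61 bp. The highest value came from joining peaks across up to 500 bp. A joined peak includes the closed gaps, so that setting widens peaks in crowded stretches by construction. The next highest, 60 bp, came from chains of at least 5 peaks. Leaving out chromosome 25 gave 36 bp. Added after seeing the data, a comparison with peaks of shorter chains within 100 kb gave 35 bp, and leaving out dense chains with a neighbour gave 32 bp. The latter setting kept all shorter chains. No paired analysis was possible because the positions carry no values by replicate, nor could any replicate be left out. Without depth, stage or signal, a chain cannot be told from sites open at different stages.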
